A study of Mus musculus with 18 samples.

Results

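The interleukin-1 (IL-1) family genes described here were Il1r1, Il1rap, Il1rl1, Il1rn, Il1a, Il1b, Il33 and Il18. They were taken by symbol from a deposited table of read counts for 48709 mouse genes, which held all 8, and were looked up by symbol in a deposited list of transcripts enriched with the RNA-binding protein IMP2. Of the 8, 7 had enough counts to be tested among 13702 genes. The cells were C57BL/6 mouse embryonic fibroblasts (MEFs), connective tissue cells grown in culture. They received an siRNA against IMP2, encoded by Igf2bp2, or a control siRNA (labelled Mock), and 24 h later were given interleukin-17 (IL-17) at 200 ng/mL for 8 h or were left unstimulated. The groups of 3 RNA-seq libraries each were thus Imp2 siRNA plus IL-17, Imp2 siRNA alone, control siRNA plus IL-17, and control siRNA alone. For RNA immunoprecipitation (RIP-seq), 3 anti-IMP2 and 3 control IgG precipitations came from MEFs given 200 ng/mL IL-17 for 3 h, with no siRNA named for them. Nothing in the labels says that the libraries of a group came from separate cultures, so p-values measure the spread between these libraries, which may be technical.

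IL-1 family cytokines act through receptor pairs. IL-1α (Il1a) and IL-1β (Il1b) bind the receptor encoded by Il1r1, IL-33 (Il33) binds ST2 (Il1rl1), and both complexes recruit the shared accessory chain encoded by Il1rap before MyD88 and the IRAK kinases pass the signal to NF-kB. The receptor antagonist encoded by Il1rn occupies the Il1r1 receptor without recruiting the accessory chain. IL-18 (Il18) uses a separate pair encoded by Il18r1 and Il18rap and is held back by the binding protein encoded by Il18bp. Fibroblasts are known to respond to IL-1 with chemokines and IL-6, many of which IL-17 also induces.

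The RNA-seq libraries held 33841054 to 44433699 counts. Titles of replicate 1 of each group carry the prefix RB160 and those of replicates 2 and 3 the prefix NA, and no source used here says what the prefixes mean. The first principal component, with 62.1% of the variance of log2 CPM (a read count scaled to one library size), placed the 4 RB160 libraries on one side of the 8 NA libraries. For this reason the prefix was a term in every main test, and values within each prefix are given beside the pooled ones. Igf2bp2 stood at 28.2, 24.3 and 18.4 CPM with Imp2 siRNA plus IL-17 and at 24.6, 22.3 and 18.6 CPM with Imp2 siRNA alone, against 139, 166 and 156 CPM with control siRNA plus IL-17 and 134, 167 and 146 CPM with control siRNA alone. The highest Imp2 siRNA library thus stood well below the lowest control library for the siRNA target. All 10 fibroblast markers were tested. Their summed level was 17310 to 18583 CPM with Imp2 siRNA plus IL-17 and 18567 to 23518 CPM with Imp2 siRNA. It was 15867 to 18300 CPM with control siRNA plus IL-17 and 18185 to 22391 CPM with control siRNA. Col1a1 (7143 to 12361 CPM), Col1a2 (4132 to 7045 CPM) and Vim (2513 to 3395 CPM) made up most of these sums. Lum (0 to 7.00 CPM), Thy1 (0.0714 to 5.90 CPM), Dcn (0.556 to 60.1 CPM) and Pdgfra (3.10 to 141 CPM) stood far lower, so the sums say little about them. Of 10 macrophage and monocyte markers 9 had a row, Adgre1 and Fcgr1 had 0 counts in all 12 libraries, and Ptprc reached at most 0.0875 CPM. Cd14 (4.14 to 10.7 CPM), Cd68 (2.52 to 4.54 CPM) and Csf1r (0.934 to 2.81 CPM) were present in every library. Of 8 lymphoid and innate lymphoid markers Cd3e, Cd3g and Il7r were at 0, while Gata3 (2.10 to 7.88 CPM) and Rora (4.51 to 8.98 CPM) were present and the summed level was 9.79 to 16.3 CPM over all libraries. Of 7 mast cell markers Fcer1a and Tpsb2 were at 0, and Kit reached 3.52 CPM.

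With Imp2 siRNA, 5 of the 7 tested IL-1 family genes fell and 2 rose, both with and without IL-17. The genes that fell were the receptor genes Il1r1 and Il1rl1, the antagonist gene Il1rn, and the ligand genes Il33 and Il18. The genes that rose were the accessory chain gene Il1rap and the ligand gene Il1a. In a fit without a term for title prefix, 1 of the 7 passed with IL-17 (Il33) and 2 without (Il1rap and Il33). Without IL-17, 4 passed when Imp2 siRNA replicate 2 or 3 was left out. Across all tested genes, 16.6% fell and 16.7% rose with IL-17 present, and 16.4% fell and 16.1% rose without it (edgeR's quasi-likelihood test, Benjamini-Hochberg adjusted p under 0.05). The median log2 fold change was -1.61 over the 7 genes against -0.01 over all tested genes with IL-17, and -1.47 against -0.00036 without. In the same comparisons 7 of 10 fibroblast markers fell and 1 rose, and 5 of 6 smooth muscle and myofibroblast markers rose. Of the 4 tested macrophage and monocyte markers 2 fell with IL-17 and 1 without, and the summed level was 9.51 to 12.1 CPM with Imp2 siRNA plus IL-17 against 13.5 to 16.1 CPM with control siRNA plus IL-17, and 8.57 to 10.4 CPM with Imp2 siRNA against 8.97 to 15.0 CPM with control siRNA. Of the 4 tested epithelial and keratinocyte markers 3 rose and 1 fell with IL-17, and 2 rose and 1 fell without. With IL-17 the summed level of all 7 epithelial markers was 50.7 to 166 CPM with Imp2 siRNA against 37.9 to 113 CPM with control siRNA. Without IL-17 the sum was 69.2 to 207 CPM with Imp2 siRNA against 41.7 to 125 CPM with control siRNA. Krt19 made up most of it, at 35.7 to 205 CPM over all libraries, and the next highest, Krt18, reached at most 1.91 CPM. These sums thus describe mainly Krt19. The summed smooth muscle level was 8886 to 19169 CPM with Imp2 siRNA plus IL-17 against 4092 to 9841 CPM with control siRNA plus IL-17, and 10905 to 20424 CPM with Imp2 siRNA against 5480 to 10267 CPM with control siRNA. The part of these shifts in the results was not tested, and in bulk RNA fewer cells of a type cannot be told apart from less RNA per cell.

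**Figure D1:**
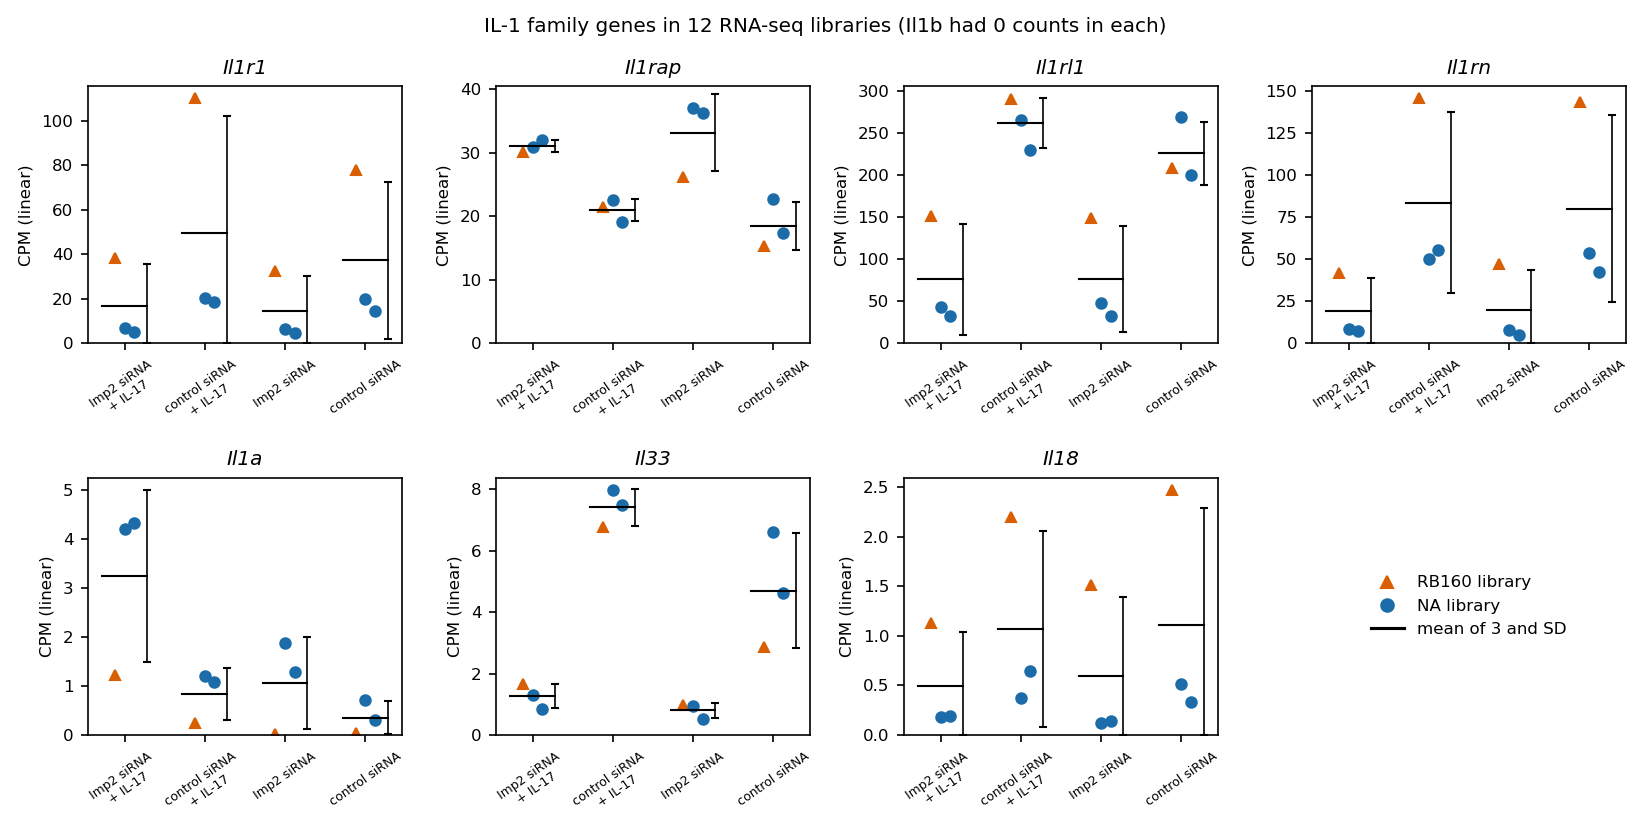
Each panel plots 1 IL-1 family gene on a linear CPM axis in the 12 libraries, with triangles for RB160 and circles for NA libraries, a bar at the mean of each group of 3, and its SD cut off at 0. Il1r1, Il1rn and Il18 have their triangles far above the circles in each group, and the Imp2 siRNA points of Il1rl1 and Il33 all lie under the control siRNA points.

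**Figure D2:**
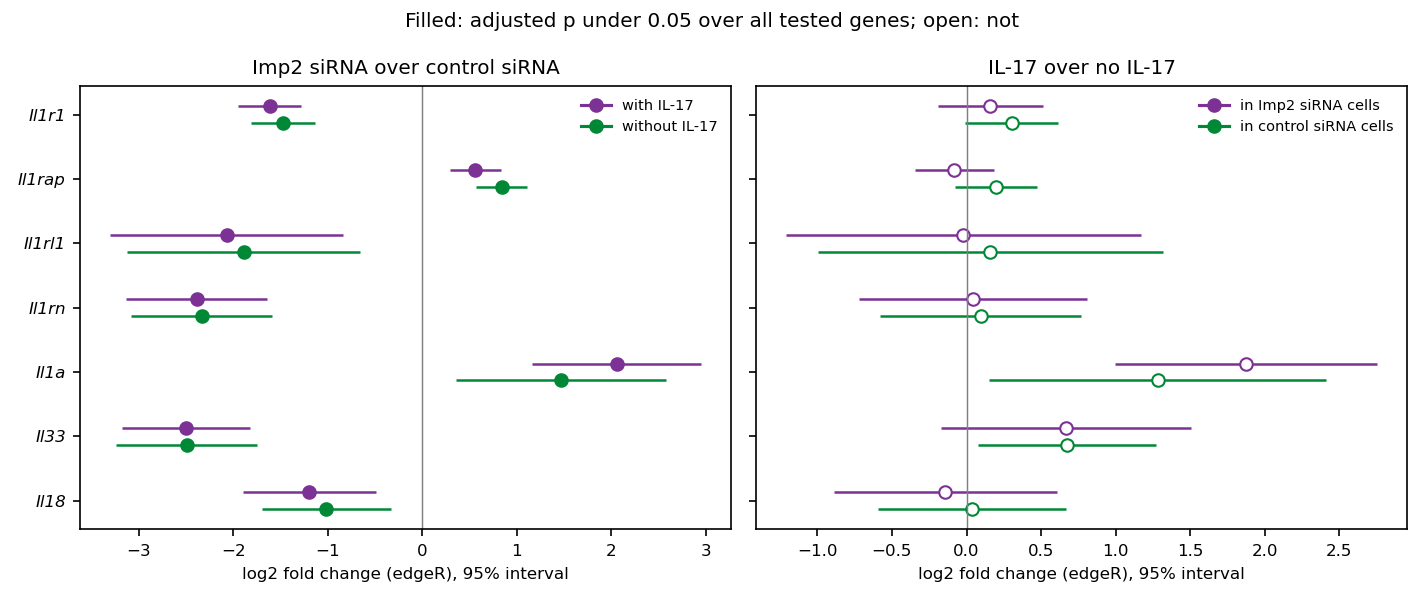
Points are log2 fold changes with 95% intervals from edgeR for 7 IL-1 family genes, for Imp2 siRNA over control siRNA on the left and for IL-17 over no IL-17 on the right, filled where the adjusted p was under 0.05. All points on the left are filled, 5 genes below and 2 above 0, and no point on the right is filled.

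Il1r1 (ENSMUSG00000026072, chromosome 1, 40225080 to 40317257, mm10, plus strand) encodes the signalling receptor for IL-1α and IL-1β. It stood at 38.6, 6.75 and 5.17 CPM with Imp2 siRNA plus IL-17 against 110, 20.3 and 18.6 CPM with control siRNA plus IL-17, and at 32.5, 6.49 and 4.81 CPM with Imp2 siRNA alone against 77.8, 19.8 and 14.4 CPM with control siRNA alone. The first value of each group is the RB160 library, which was 4.55 to 6.48 times the mean of the NA libraries, so the groups overlapped across prefixes while every Imp2 siRNA library lay below the control libraries of its own prefix. Imp2 siRNA over control siRNA gave a log2 fold change of -1.61 (SE 0.151, adjusted p = 1.75e-05) with IL-17 and -1.47 (SE 0.154, adjusted p = 3.87e-05) without it. Within RB160 and within NA libraries the log2 ratios were -1.51 and -1.71 with IL-17, and -1.26 and -1.58 without. In the fit without the prefix term the adjusted p for Il1r1 was 0.581 with IL-17 and 0.641 without.

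Il1rl1 (ENSMUSG00000026069, chromosome 1, 40429570 to 40465415, plus strand) encodes the IL-33 receptor ST2 and begins 112312 bases beyond the end of Il1r1. It stood at 152, 43.6 and 32.5 CPM with Imp2 siRNA plus IL-17 against 289, 265 and 230 CPM with control siRNA plus IL-17, and at 148, 47.9 and 32.4 CPM with Imp2 siRNA alone against 208, 268 and 200 CPM with control siRNA alone. The groups did not overlap, but the RB160 library with Imp2 siRNA was 3.69 to 3.99 times the mean of its NA counterparts, while the control groups differed little between prefixes (ratios of 1.17 with and 0.889 without IL-17). In log2 terms Il1rl1 changed by -2.07 (SE 0.527, adjusted p = 0.0204) with IL-17 and -1.89 (SE 0.527, adjusted p = 0.0297) without. Within RB160 libraries the log2 ratio was -0.93 with and -0.49 without IL-17, and within NA libraries -2.71 with and -2.55 without. These calls depended on single libraries, and over 13 alternatives the adjusted p ran from 0.000208 to 0.209 with IL-17 and from 0.000829 to 0.273 without. With IL-17 the adjusted p was 0.0766 without Imp2 siRNA plus IL-17 replicate 2, 0.0814 without its replicate 3, and 0.0555 without control siRNA plus IL-17 replicate 3. Without IL-17 it was 0.0945 and 0.108 without Imp2 siRNA replicates 2 and 3, and 0.0737 and 0.0661 without control siRNA replicates 2 and 3.

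Il1rap (ENSMUSG00000022514, chromosome 16, 26581704 to 26730117, plus strand), the accessory chain that both receptors need, went the other way. It stood at 30.2, 30.9 and 32.1 CPM with Imp2 siRNA plus IL-17 against 21.4, 22.5 and 19.1 CPM with control siRNA plus IL-17, and at 26.2, 37.1 and 36.3 CPM with Imp2 siRNA alone against 15.3, 22.8 and 17.4 CPM with control siRNA alone. No Imp2 siRNA library fell below a control library in either comparison. Its log2 fold change reached 0.56 (SE 0.124, adjusted p = 0.00423) with IL-17 and 0.84 (SE 0.125, adjusted p = 0.000301) without. Within RB160 and NA libraries the log2 ratios were 0.49 and 0.60 with IL-17, and 0.77 and 0.88 without, so this gene differed little between prefixes. Gm20319, annotated within Il1rap on the opposite strand, had 21 counts over the 12 libraries against 11680 for Il1rap, and no source used here states whether counting used strand.

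Il1r1 and Il1rl1 belong to a run of 6 receptor genes of the family on the plus strand of chromosome 1, from 40074079 to 40551705. In order these are Il1r2, a decoy receptor for IL-1, Il1r1, the IL-36 receptor gene Il1rl2, Il1rl1, and the IL-18 receptor genes Il18r1 and Il18rap. Il1r2, Il1rl2 and Il18r1 had 10, 31 and 14 counts summed over the 12 libraries and were not tested. The other 3 were tested, and each fell with Imp2 siRNA in both comparisons, where 16.6% of all tested genes fell with IL-17 and 16.4% without. Il1r1 and Il1rl1 are among the members described above, so only Il18rap adds to them. Whether the genes of this run are regulated together was not tested. Il18rap stood at 9.10, 5.08 and 3.79 CPM with Imp2 siRNA plus IL-17 against 11.03, 14.8 and 15.4 CPM with control siRNA plus IL-17 (log2 fold change -1.21, SE 0.329, adjusted p = 0.0218). Without IL-17 it stood at 8.44, 5.00 and 4.81 CPM with Imp2 siRNA against 11.04, 15.0 and 14.6 CPM with control siRNA (-1.17, SE 0.329, adjusted p = 0.0251), and no groups overlapped in either comparison. The gap was smallest between the RB160 libraries, the first of each group.

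The promoters of Il1r1 and Il1rl1 are shown because both of these chromosome 1 receptor genes fell. Each sequence runs from 250 bases before the start site to 50 after it, 5′ to 3′, from RefSeq (GRCm38.p6, the build mm10), and the start site is the 5′ end of the deposited gene. They cover chr1:40224830-40225129 and chr1:40429320-40429619, both on the plus strand. Capitals mark matches on either strand to the letters TTGCNNAA, which resemble a C/EBP site.
Il1r1: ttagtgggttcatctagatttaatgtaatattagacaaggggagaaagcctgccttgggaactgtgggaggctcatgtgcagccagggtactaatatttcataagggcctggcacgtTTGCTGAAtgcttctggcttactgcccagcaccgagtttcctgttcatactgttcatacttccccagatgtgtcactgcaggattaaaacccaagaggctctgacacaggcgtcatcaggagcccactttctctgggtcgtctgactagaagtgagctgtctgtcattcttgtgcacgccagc
Il1rl1: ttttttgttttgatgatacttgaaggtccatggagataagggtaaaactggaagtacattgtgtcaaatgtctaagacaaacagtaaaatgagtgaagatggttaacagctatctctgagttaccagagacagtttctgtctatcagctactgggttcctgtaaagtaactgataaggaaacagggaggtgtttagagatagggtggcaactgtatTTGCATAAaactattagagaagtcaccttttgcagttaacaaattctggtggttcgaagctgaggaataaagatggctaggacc
The match was TTGCTGAA at position -133 from the start site of Il1r1 and TTGCATAA at position -34 from that of Il1rl1. Of 32851 RefSeq promoters of the same length, 10.8% held these letters, so such matches are common. Neither sequence held the AP-1 letters TGANTCA, found in 7.81% of promoters, or the NF-kB letters (GGG and CC around 5 free bases), found in 50.8%, while the Il1rap promoter held 6 overlapping or separate matches to the latter. A match describes letters and not a bound site. RefSeq holds another promoter of each receptor gene, 41506 bases downstream of the deposited 5′ end for Il1r1 and 10059 for Il1rl1. That of Il1r1 held 1 match to the NF-kB letters and 0 to the AP-1 or C/EBP letters. That of Il1rl1 held 0 matches to any of these letters. Which promoter these cells use was not tested.

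Il1rn (ENSMUSG00000026981, chromosome 2, 24336853 to 24351494, plus strand) encodes the IL-1 receptor antagonist. It stood at 41.9, 8.54 and 7.24 CPM with Imp2 siRNA plus IL-17 against 146, 49.9 and 55.3 CPM with control siRNA plus IL-17, and at 47.0, 7.72 and 5.28 CPM with Imp2 siRNA alone against 144, 53.8 and 42.6 CPM with control siRNA alone. With IL-17 the groups did not overlap. Without it the RB160 library with Imp2 siRNA, at 47.0 CPM, exceeded the lowest NA control library at 42.6 CPM, and within each prefix the groups did not overlap. On the log2 scale Imp2 siRNA changed Il1rn by -2.38 (SE 0.320, adjusted p = 0.000901) with IL-17 and -2.33 (SE 0.320, adjusted p = 0.00102) without, or 0.191 and 0.198 of the control level. Within RB160 and NA libraries the log2 ratios were -1.80 and -2.73 with IL-17, and -1.61 and -2.90 without. In the fit without the prefix term the adjusted p for Il1rn was 0.352 with IL-17 and 0.369 without.

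Il1a (ENSMUSG00000027399, chromosome 2, 129299610 to 129309972, minus strand) encodes IL-1α, the agonist that Il1rn competes with. It was a low-count gene, with 55, 138 and 138 counts with Imp2 siRNA plus IL-17 against 12, 45 and 37 with control siRNA plus IL-17, and 1, 64 and 44 with Imp2 siRNA alone against 2, 26 and 10 with control siRNA alone. With IL-17 every Imp2 siRNA library was above every control library, at 1.21, 4.19 and 4.33 CPM against 0.236, 1.19 and 1.08 CPM. Without IL-17 the NA libraries were higher with Imp2 siRNA, but the RB160 pair had 1 count against 2 and ran the other way. For Il1a the fitted log2 fold change was 2.06 (SE 0.410, adjusted p = 0.00226) with IL-17 and 1.47 (SE 0.509, adjusted p = 0.0443) without. Within RB160 and NA libraries the log2 ratios were 2.17 and 1.85 with IL-17, and -0.44 and 1.62 without. The call without IL-17 was lost without Imp2 siRNA replicate 2 (adjusted p = 0.211) or replicate 3 (0.101), and without control siRNA replicate 1 (0.0852) or replicate 3 (0.176), and the log2 value was 2.18 without control siRNA replicate 2. Over 13 alternatives that adjusted p ran from 0.00122 to 0.604. Gm14023, annotated on the opposite strand of Il1a, had 51 counts over the 12 libraries against 572 for Il1a.

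The promoters of Il1rn and Il1a are shown because the antagonist fell while the agonist rose with Imp2 siRNA. Without IL-17, Il1a rose in the NA libraries only. They were also chosen because, among the members' promoters nearest the deposited 5′ ends, they alone held AP-1 letters. They cover chr2:24336610-24336909 on the plus strand and chr2:129309923-129310222 on the minus strand, again from RefSeq (GRCm38.p6). The start site used is that of the deposited gene for Il1a and lies 7 bases inside it for Il1rn. Capitals mark matches to TGANTCA and to the NF-kB letters on either strand.
Il1rn: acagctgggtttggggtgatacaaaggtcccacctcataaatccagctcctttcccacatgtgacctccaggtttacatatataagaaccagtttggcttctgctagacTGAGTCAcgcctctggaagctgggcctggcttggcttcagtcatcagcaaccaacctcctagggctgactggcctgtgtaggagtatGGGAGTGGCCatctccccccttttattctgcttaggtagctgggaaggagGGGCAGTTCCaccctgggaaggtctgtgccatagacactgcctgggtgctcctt
Il1a: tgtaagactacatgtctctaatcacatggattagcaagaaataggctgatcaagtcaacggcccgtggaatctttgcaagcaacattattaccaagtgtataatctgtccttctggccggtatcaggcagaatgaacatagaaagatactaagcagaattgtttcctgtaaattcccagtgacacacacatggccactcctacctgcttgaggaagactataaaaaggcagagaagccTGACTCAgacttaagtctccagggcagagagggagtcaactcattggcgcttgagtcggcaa
The AP-1 letters were TGAGTCA at position -141 in Il1rn and TGACTCA at position -12 in Il1a. Of all RefSeq promoters of this length 7.81% held AP-1 letters and 50.8% NF-kB letters. Both sequences were picked for their AP-1 letters, so that both hold them is no result. Il1rn also held GGGAGTGGCC at position -54 and GGGCAGTTCC at position -4. No match overlapped another in either sequence. Further RefSeq promoters of Il1rn, 8438 and 8518 bases downstream of the deposited 5′ end, each held 1 match to the NF-kB letters and 0 to the AP-1 letters.

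Il1b (ENSMUSG00000027398, chromosome 2, 129364570 to 129371139, minus strand), which encodes the agonist IL-1β, had 0 counts in all 12 libraries. A count of 0 allows up to 0.0675 to 0.0886 CPM per library (3 counts of the library total), and 0.00663 CPM over the 12 together, which covers counting error only. IL-17 for 8 h therefore gave no detectable Il1b at this depth with either siRNA. Its opposite-strand neighbour Il1bos had 2 counts in all.

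Il33 (ENSMUSG00000024810, chromosome 19, 29925114 to 29960718, plus strand) encodes IL-33, a nuclear alarmin and the ligand of ST2. It had 75, 43 and 27 counts with Imp2 siRNA plus IL-17 against 345, 300 and 257 with control siRNA plus IL-17, and 41, 32 and 18 counts with Imp2 siRNA alone against 120, 242 and 155 with control siRNA alone. In CPM these were 1.66, 1.31 and 0.847 against 6.78, 7.97 and 7.50 with IL-17, and 0.969, 0.936 and 0.525 against 2.85, 6.61 and 4.63 without. No Imp2 siRNA library reached the lowest control library. Fitted log2 fold changes for Il33 were -2.50 (SE 0.310, adjusted p = 0.000115) with IL-17 and -2.49 (SE 0.339, adjusted p = 0.000234) without, and within RB160 and NA libraries the log2 ratios were -2.005 and -2.81 with IL-17, and -1.52 and -2.88 without. Il33 and its receptor gene Il1rl1 thus both fell.

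Il18 (ENSMUSG00000039217, chromosome 9, 50575273 to 50581837, plus strand) encodes IL-18, which is stored as a precursor and released after caspase-1 cleavage. It had 51, 6 and 6 counts with Imp2 siRNA plus IL-17 against 112, 14 and 22 with control siRNA plus IL-17, and 64, 4 and 5 counts with Imp2 siRNA alone against 104, 19 and 11 with control siRNA alone. The RB160 libraries were 4.34 to 11.5 times the mean of the NA libraries, and the groups overlapped across prefixes but not within either. Il18 changed by -1.20 (log2, SE 0.328, adjusted p = 0.0121) with IL-17 and -1.02 (SE 0.319, adjusted p = 0.0246) without, and within RB160 and NA libraries the log2 ratios were -0.94 and -1.17 with IL-17, and -0.69 and -1.32 without. With IL-17 the adjusted p was 0.0817 without Imp2 siRNA plus IL-17 replicate 1. Without IL-17 it was 0.0718 and 0.0732 without Imp2 siRNA replicates 2 and 3, and 0.0903 and 0.0651 without control siRNA replicates 1 and 2, and the log2 value was -1.74 without Imp2 siRNA replicate 1. Over 13 alternatives the adjusted p ran from 0.00777 to 0.748 with IL-17 and from 0.0121 to 0.797 without. The binding protein gene Il18bp did not pass, at -0.28 (adjusted p = 0.188) with IL-17 and -0.05 (adjusted p = 0.854) without.

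The effect of Imp2 siRNA was then set against the title prefix, in a fit with a value for each group and prefix. The siRNA effect on Il1rn was -1.70 in RB160 and -2.81 in NA libraries, a difference of 1.11 (SE 0.220, adjusted p = 0.0439), against 6.13% of all tested genes that passed this test. Il1rl1, at -0.71 in RB160 and -2.62 in NA libraries, differed by 1.91 (SE 0.340, adjusted p = 0.0579) and did not pass. Il33, at -1.79 and -2.89 in the same libraries, differed by 1.10 (SE 0.317, adjusted p = 0.0589) and did not pass either. The other 4 differences were 0.27 for Il1r1, -0.10 for Il1rap, -1.04 for Il1a and 0.71 for Il18, with adjusted p of 0.398 to 0.756. RB160 had 1 library per group, so these SEs and p-values rest on the spread between NA libraries and assume that RB160 libraries vary alike.

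**Figure D3:**
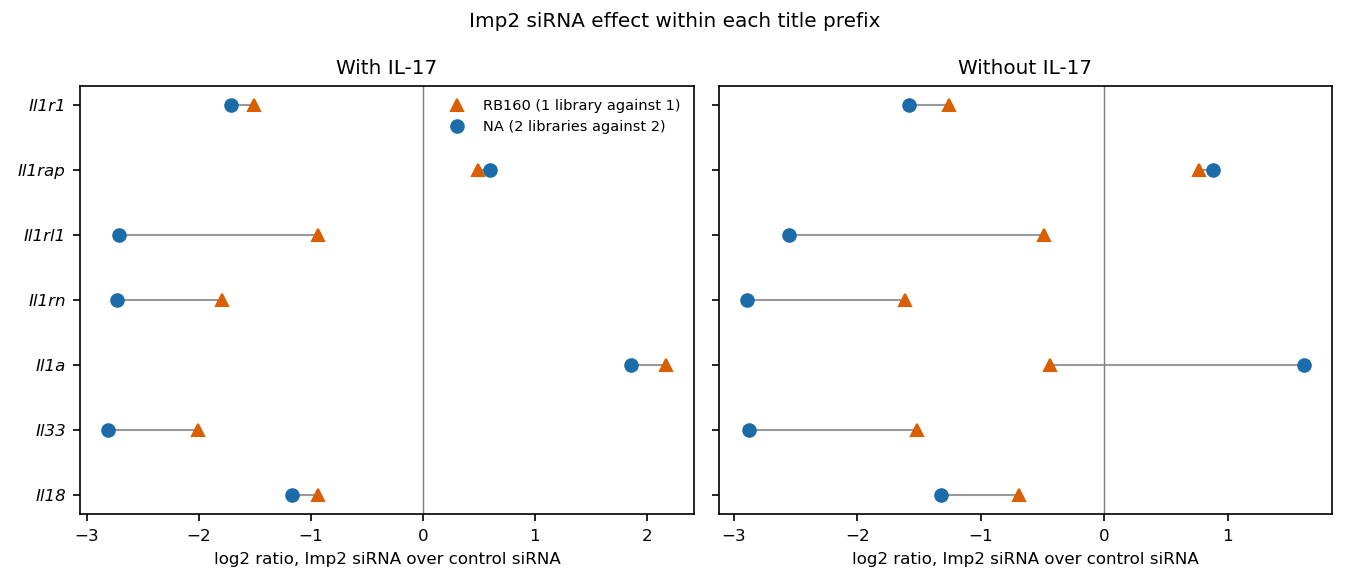
Log2 ratios of Imp2 siRNA over control siRNA are plotted for 7 IL-1 family genes within RB160 libraries (triangles, 1 against 1) and within NA libraries (circles, 2 against 2), with IL-17 on the left and without it on the right. The 5 genes that fell lie below 0 in both prefixes, with the circle further from 0, and Il1a without IL-17 lies on opposite sides of 0.

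IL-17 itself moved no tested IL-1 family gene past the threshold in either siRNA condition. By edgeR 0 of 7 passed in Imp2 siRNA cells, where 0.452% of all tested genes passed, and 0 of 7 in control siRNA cells, where 0.409% did. At an unadjusted p under 0.05 there was 1 of the 7 in Imp2 siRNA cells, against 7.35% of all tested genes, and 2 in control siRNA cells, against 10.8%. DESeq2 called 1 of the 7 in Imp2 siRNA cells, against 1.27% of the genes it tested, and 0 in control siRNA cells, against 1.41%. The gene that DESeq2 called was Il1a in Imp2 siRNA cells, with 55, 138 and 138 counts with IL-17 against 1, 64 and 44 without (edgeR log2 fold change 1.88, SE 0.404, adjusted p = 0.0831; DESeq2 2.10, adjusted p = 0.00106). Each IL-17 library held more Il1a than the unstimulated libraries of its prefix, and edgeR on the NA libraries alone gave 1.43 (adjusted p = 0.00967), while over its alternatives the adjusted p ran from 0.00106 to 0.999986. In control siRNA cells Il1a had 12, 45 and 37 counts with IL-17 against 2, 26 and 10 without (1.28, SE 0.518, adjusted p = 0.389). Il33 in control siRNA cells was higher in every IL-17 library, at 6.78, 7.97 and 7.50 CPM against 2.85, 6.61 and 4.63 CPM. It did not pass there (0.68, SE 0.272, adjusted p = 0.393), and in Imp2 siRNA cells the groups overlapped (0.67, SE 0.383, adjusted p = 0.824). The share of all tested genes ordered by IL-17 like Il33, or within each prefix like Il1a, was not computed. The log2 values of the other 5 genes lay between -0.14 and 0.16 in Imp2 siRNA cells and between 0.04 and 0.30 in control siRNA cells.

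Whether the IL-17 effect differed between the siRNAs was tested as an interaction. By edgeR 0 of 7 IL-1 family genes passed, as did 0% of all tested genes, with 0 of the 7 and 1.03% of all tested genes at an unadjusted p under 0.05. DESeq2 called 0 of the 7 and 0% of all genes it tested. The difference was 0.59 for Il1a (95% interval -0.84 to 2.02), -0.01 for Il33 (-1.04 to 1.02) and -0.28 for Il1rap (-0.66 to 0.10). For Il1r1 it was -0.14 (-0.61 to 0.33), for Il1rn -0.05 (-1.07 to 0.97), for Il18 -0.18 (-1.16 to 0.80) and for Il1rl1 -0.18 (-1.84 to 1.48). Differences within these intervals were not resolved by 3 libraries per group. Within each prefix, every Imp2 siRNA library of the 5 genes that fell lay below every control siRNA library, whether or not IL-17 was given. Neighbours in that order that differed by IL-17 alone did not pass the test. The 5 genes were those called lower in these same libraries, so their order is no separate evidence. RB160 had 1 library per group, and the share of all tested genes with such an order was not computed.

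Genes that carry or restrain the IL-1 signal inside the cell had a median log2 fold change of 0.11 with IL-17 and 0.01 without. Of these 21 genes of IL-1 receptor signalling, all tested, 7 rose, 3 fell and 11 did not pass with Imp2 siRNA, in each comparison. Among all tested genes 16.7% rose and 16.6% fell with IL-17, and 16.1% rose and 16.4% fell without it. Irak2, a kinase of the MyD88 complex, rose by 0.49 on the log2 scale with IL-17 (48.5 against 34.96 CPM on average, adjusted p = 7.10e-05) and by 0.46 without. Tab2, an adaptor of the kinase TAK1, rose by 0.39 and 0.40, the IκB kinase gene Chuk by 0.29 and 0.28, and the regulatory subunit gene Ikbkg by 0.28 and 0.24 in the same order. The adaptor gene Myd88 fell to 15.9 CPM with Imp2 siRNA plus IL-17 against 20.8 CPM with control siRNA plus IL-17 (-0.38, adjusted p = 0.0116), and was at -0.39 without IL-17. Tollip, an inhibitor of the receptor complex, fell by 0.27 with and 0.26 without IL-17. Irak3, which encodes a braking IRAK, was the remaining gene that fell, at -0.69 and -0.73, and is named after its values were seen.

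Of 18 genes of ligand processing and release 8 were tested. With Imp2 siRNA and IL-17, 1 rose, 4 fell and 3 did not pass, and without IL-17, 1 rose, 6 fell and 1 did not pass. Over all tested genes 16.7% rose and 16.6% fell with IL-17, and 16.1% rose and 16.4% fell without it. Mmp9, a secreted gelatinase, averaged 1.80 CPM with Imp2 siRNA plus IL-17 against 10.7 CPM with control siRNA plus IL-17 (-2.52, SE 0.161, adjusted p = 1.18e-07), and was at -3.08 without IL-17. Casp4, the mouse sensor of cytosolic lipopolysaccharide, fell by 1.21 with and 1.18 without IL-17, and the pore-forming gene Dfna5 (gasdermin E) fell by 0.43 and 0.48. Gsdmd, the pore through which IL-1β leaves cells, fell by 0.35 with IL-17, and without IL-17, where it is named after its values were seen, by 0.26. Capn1 (-0.29) fell without IL-17. Capn2, a calpain like Capn1, rose by 0.36 with and 0.34 without IL-17. Casp1, the protease that matures IL-1β and IL-18, had 3 counts or fewer over each group's 3 libraries: 0 with Imp2 siRNA plus IL-17, 0 with Imp2 siRNA alone, 1 with control siRNA plus IL-17 and 2 with control siRNA alone. The inflammasome genes Nlrp3 and Pycard had at most 7 and 14 counts per group and were not tested.

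Of 24 genes that fibroblasts are known to induce with IL-1, 22 were tested. IL-17 raised 6 in Imp2 siRNA cells and 6 in control siRNA cells, and lowered 0 in either. In either direction, 0.452% of all tested genes passed in Imp2 siRNA cells and 0.409% in control siRNA cells. The list was chosen with earlier results of these data known, and IL-17 is known to induce many such genes. Its excess over these shares is therefore no separate evidence. Named by size among those averaging 5 CPM or more were the neutrophil chemokine gene Cxcl1, at 42.0 CPM with IL-17 against 4.74 CPM without in Imp2 siRNA cells (log2 fold change 3.15) and 203 against 32.3 CPM in control siRNA cells (2.65), followed by Nfkbiz (2.30 and 2.05), Zc3h12a (2.02 and 1.97) and Nfkbia (0.58 and 0.55). With Imp2 siRNA, 2 rose, 10 fell and 10 did not pass with IL-17 present, and 2 rose, 8 fell and 12 did not pass without it. The shares that rose and fell over all tested genes were 16.7% and 16.6% with IL-17, and 16.1% and 16.4% without. Cxcl1 fell, at -2.27 with and -2.77 without IL-17, as did Il6 (-2.25 and -1.89), the monocyte chemokine gene Ccl2 (-1.63 and -2.13) and Ccl7 (-1.48 and -2.07). Tnfaip3, which encodes the NF-kB brake A20, rose to 101 CPM with Imp2 siRNA plus IL-17 against 54.9 CPM with control siRNA plus IL-17 (0.96, adjusted p = 1.16e-05), and was at 0.86 without IL-17. The other gene that rose, named after its values were seen, was Csf3, which encodes G-CSF, at 2.47 with and 3.17 without IL-17. The list median was -0.66 with and -0.64 without IL-17.

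**Figure D4:**
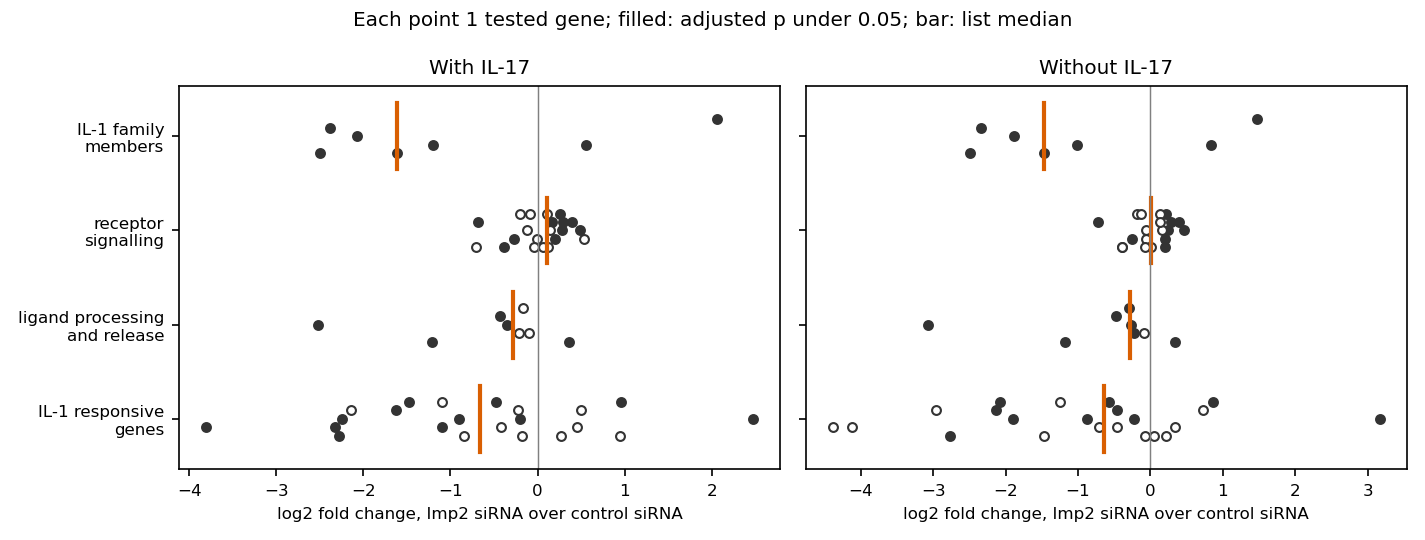
Each point is the log2 fold change of 1 tested gene, Imp2 siRNA over control siRNA, with IL-17 on the left and without it on the right, filled where the adjusted p was under 0.05, and the bar is the list median. IL-1 family genes spread from -2.50 to 2.06 with IL-17. Receptor signalling genes spread from -0.71 (Peli2) to 0.53 (Peli3) with a median of 0.11.

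The remaining members of the family were mostly near the limit of the counts. Of 13 further IL-1 family genes 9 had a row and 2, Il18rap and Il18bp, were tested. Sigirr, an inhibitory receptor, had 6 counts with Imp2 siRNA plus IL-17, 11 with Imp2 siRNA alone, 18 with control siRNA plus IL-17 and 19 with control siRNA alone, summed over 3 libraries. Il1rl2 had 4, 0, 17 and 10 counts in the same order of groups. Il36a, Il36b, Il36g and Il36rn were not analysed here.

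Transcripts enriched with IMP2 were taken from the authors' deposited table, which lists 5294 genes. Each has a log2 fold change of anti-IMP2 over IgG of at least 1. The table held 2 of the 7 tested IL-1 family genes, Il18 and Il1rn, against 34.5% of all genes tested in RNA-seq. In the authors' deposited table Il1rn had a log2 fold change of 1.60 (SE 0.291, adjusted p = 3.46e-07) at a mean normalized count of 172. In the authors' deposited table Il18 had 2.24 (SE 0.783, adjusted p = 0.0106) at a mean normalized count of 21.2. The median over the genes in the authors' deposited table was 2.16, so Il18 stood slightly above and Il1rn below it, at ranks 2458 and 4021 of 5294. Il1r1, Il1rl1, Il1rap, Il1a and Il33 were not in it, and whether they failed its thresholds or were not measured is unknown here. Both listed genes fell with Imp2 siRNA, as did Il1r1, Il1rl1 and Il33, which were not listed. Il1rap and Il1a, also not listed, rose. Whether listing goes with the siRNA effect was not tested. A further table in the authors' deposited files joins 97 genes of both assays. In that authors' deposited table Il1rn had a signed RNA-seq fold of -4.32, with no comparison named, and the entry N for an IMP2 motif. Of the lists above, the authors' deposited table held 7 of 21 tested signalling genes, 5 of 8 processing genes and 7 of 22 IL-1 responsive genes.

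Across the 12 libraries, log2(CPM + 1) with the prefix means removed was compared between genes as a description. These values share the siRNA groups and the libraries, so genes that the siRNA moved in one direction are alike by construction. Il1r1 and Il33 had a Pearson r of 0.981, Il1r1 and Il1rn 0.969, Il1rl1 and Il1rn 0.964, and Il1rl1 and Il33 0.952. Il1rap ran opposite to the 5 genes that fell, with r from -0.903 to -0.784, and with Il1a it had 0.658. Among all tested genes, the pattern of Il1r1 was most like that of Thrap3 (0.993), Fmnl2 (0.990) and Cnot6 (0.990), and that of Il1rl1 most like Gap43 (0.993), Lhfp (0.992) and Igf2bp3 (0.992), the last a gene of the IMP family. Il1rn was most like Cct6a (0.996), Klhl42 (0.995) and Polr2b (0.993), and Il33 most like Pyroxd1 (0.995), Sod3 (0.993) and Cp (0.991). Il1rap was most like Slc7a1 (0.980), Atp2a2 (0.979) and Uhrf1bp1l (0.979). Il1a was most like Papd5 (0.961), Ankk1 (0.951) and Pnpla8 (0.948), and Il18 most like Rbm43 (0.969), Efr3b (0.966) and Iqgap2 (0.966).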

How the data were processed

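RNA was measured in 12 RNA-seq and 6 RIP-seq libraries. The authors deposited raw read counts per gene with mm10 coordinates; Nextera XT and SMART-Seq v4 kits were used, per the labels' protocols. The submitters' processing notes name CASAVA 1.4, STAR and DESeq2, without roles. For RIP-seq the authors deposited, per the file headers, DESeq2's baseMean (a signal: the mean normalized count), the log2 fold change with its SE, a Wald score, and p-values. A joined table that the authors deposited holds scores: a signed RNA-seq fold and a RIP-seq value, of which the latter was not used.

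Counts were tested in R 4.3.3 with edgeR 4.0.16: filterByExpr kept 13702 of 48709 genes, TMM scaling, a robust quasi-likelihood fit of the 4 groups plus title prefix, and Benjamini-Hochberg adjustment over those genes (threshold 0.05). The biological coefficient of variation was 7.95%. SE is the absolute log2 fold change over the square root of F; interaction intervals combine the SEs of both IL-17 contrasts. Within-prefix log2 ratios used a prior count of 2. CPM used TMM-scaled totals. Library totals of 33841054 to 44433699 counts set the precision, which is lowest where counts are few. Named list genes were at most 4 per list and direction past the threshold, by size, where either compared group averaged 5 CPM or more. Replicate numbers name libraries in title order. The members and lists were chosen with earlier results of these data known. Alternatives were DESeq2 1.42.0, other scalings, no filter, no prefix term, the compared groups or NA libraries alone, and leaving out each library; a prefix by siRNA fit was added after seeing the data.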

Additional observations from a re-analysis of the deposited data

Results flagged for a closer look

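The estimated effect of Imp2 siRNA on Il1rn was -1.70 in RB160 and -2.81 in NA libraries, a difference between the title prefixes of 1.11 on the log2 scale (SE 0.220, edgeR adjusted p = 0.0439). Each Imp2 siRNA library held less Il1rn than the control siRNA libraries of its prefix, with and without IL-17. The test is the contrast of the mean siRNA effects in a fit chosen after seeing the data, and RB160 had 1 library per group, so the SE and p-value rest on the spread between NA libraries alone and assume that RB160 libraries vary alike. Groups of 3 libraries are too small for a test of single outlying libraries.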

How the results depend on the processing

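The 7 IL-1 family genes called with Imp2 siRNA kept their direction in each of 13 tested alternatives per comparison, and within RB160 libraries except Il1a without IL-17 (-0.44). Without the prefix term 2 were called without IL-17 (Il1rap and Il33) and 1 with it (Il33); the cause was not tested. Leaving out 1 library gave 4 to 7 calls without IL-17 and 6 to 7 with it, and a log2 value for Il1a without IL-17 of 1.01 to 2.18. Past the threshold were Il33 in 13 and 13 alternatives with and without IL-17, Il1rap in 12 and 13, Il1r1 and Il1rn in 12 and 12, Il1a in 12 and 6, Il18 in 11 and 8, and Il1rl1 in 8 and 7. IL-17 in Imp2 siRNA cells gave 1 call (Il1a) with DESeq2 and 1 with NA libraries alone, and 0 in each fit that left out a library. Of the 2 IL-1 family genes in the deposited RIP table, 1 was left at an adjusted p of at most 0.01 and 1 at a log2 fold change of at least 2. Values near 0 that did not pass changed sign. For IL-17 in Imp2 siRNA cells, Il1rl1 was 0.000193 with library totals, Il1rn -0.055 without the prefix term and Il18 0.49 in NA libraries alone; for IL-17 in control siRNA cells, Il18 was -0.043 without the prefix term. In NA libraries alone the interactions were 0.16 for Il1rn, 0.11 for Il33 and 0.25 for Il18. Leaving out 1 library, IL-17 in Imp2 siRNA cells ranged over -0.28 to 0.61 for Il18, -0.61 to 0.49 for Il1rl1 and -0.20 to 0.58 for Il1rn, and in control siRNA cells over -0.22 to 0.38, -0.23 to 0.51 and -0.098 to 0.33 for the same genes. Interactions ranged over -0.52 to 0.58 for Il18, -0.13 to 1.05 for Il1a, -0.78 to 0.32 for Il1rl1, -0.29 to 0.48 for Il1rn and -0.43 to 0.32 for Il33. The fit without a filter gave no value for Il1b, which had 0 counts. No paired analysis was possible because the RNA-seq titles carry running numbers within a prefix, no label says which NA libraries share a culture, day or replicate, and the RIP-seq result comes from the authors' comparison. Il1b, with 0 counts, was not tested, and Il18, Il1a and Il33 had the fewest counts of the tested members.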
